A study of Mus musculus with 18 samples.

Results

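The genes described here encode the enzymes that turn membrane arachidonic acid into prostaglandin E2 and into leukotrienes, together with a prostaglandin E2 receptor and annexin A1. The 10 members, chosen by name from their roles in this pathway, were Pla2g4a, Ptgs1, Ptgs2, Ptges, Ptger4, Alox5, Alox5ap, Ltc4s, Lta4h and Anxa1, out of 38887 genes in the count tables. They were followed by poly(A) RNA-seq in bone marrow-derived macrophages (BMMs) of 3 genotypes, each untreated and after LPS, with 3 libraries in each of the 6 groups. GILZ, the glucocorticoid-induced leucine zipper, is a glucocorticoid-inducible regulator of inflammatory gene expression and is encoded by Tsc22d3.

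All mice were female C57BL/6J animals of 10 to 23 weeks that, by the study's methods, carried Cre recombinase under the endogenous Lyz2 promoter, which is active in myeloid cells. The WT mice had no further allele, GILZ KO mice had loxP sites around exon 6 of Tsc22d3, and GILZ TG mice had a Gilz-1 cDNA in the ROSA26 locus behind a loxP-flanked stop. Bone marrow was cultured for 6 days with M-CSF, and the BMMs were then left untreated or given 100 ng/ml LPS, the Gram-negative cell wall ligand of TLR4, for 4 h. The cultures had been grown from bone marrow cells, so that a library can hold other marrow cells, and Cre acts only in cells that use Lyz2.

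Cytosolic phospholipase A2 releases arachidonic acid from membranes, and the substrate then goes either to the cyclooxygenases, which make prostaglandin H2, or to 5-lipoxygenase and its activating protein, which make leukotriene A4. Terminal enzymes set the product: microsomal prostaglandin E synthase makes prostaglandin E2, leukotriene C4 synthase makes cysteinyl leukotrienes and leukotriene A4 hydrolase makes leukotriene B4. Macrophages are a known source of both families, and annexin A1 is a glucocorticoid-regulated protein that dampens inflammation through formyl peptide receptors.

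Tsc22d3, the targeted gene, was at 14.9 to 18.8 TPM (a transcript level scaled to its length and to the library) in untreated WT, 1.89 to 2.81 in GILZ KO and 152 to 160 in GILZ TG. After LPS it was at 4.56 to 5.81 TPM in WT, 2.50 to 3.28 in GILZ KO and 127 to 141 in GILZ TG, so that WT and GILZ KO lay closer to each other: their log2 difference was -2.74 untreated (edgeR adjusted p = 2.16e-05) and -0.69 after LPS (edgeR adjusted p = 0.15). Lyz2 itself was at 6766 to 15401 TPM in the 6 WT libraries and at 17.2 to 70.3 TPM in the 12 GILZ KO and GILZ TG libraries, although the methods give all mice the same Cre. This difference goes along with every comparison against WT, and not with GILZ KO against GILZ TG, and its part in the results was not tested. Depth was 14583055 to 38557029 counts, and each of 7 macrophage markers was above 0 in each of the 18 libraries, summing to 3825 to 5021 TPM. GILZ TG replicates 1 and 2 had higher marker sums of other marrow cells than the rest. The 8 stromal fibroblast markers summed to 80.2 to 115 TPM in these 4 libraries and to 4.88 to 21.8 TPM in the other 14. The 8 neutrophil lineage markers summed to 187 to 516 against 20.7 to 83.5 TPM, and 6 B cell markers to 49.2 to 112 against 4.20 to 19.5 TPM. Whether these libraries held more of such cells was not tested. In bulk RNA, fewer cells of a type and less RNA per cell cannot be told apart.

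LPS split the members. By edgeR, with Benjamini-Hochberg adjustment over all genes and a threshold of 0.05, 4 of the 10 members rose (Ptgs2, Ptges, Pla2g4a and Anxa1) and 2 fell (Ptgs1 and Lta4h) in WT, against 33.5% of all genes tested called higher and 35.1% called lower. In GILZ KO the counts were 4 higher and 2 lower, the same genes, against 33.2% and 35.4% of all genes. In GILZ TG they were 5 higher and 2 lower, Ptger4 being the addition, against 33.6% and 35.1% of all genes. With more than 3 in 10 genes called in each direction, the members' shares were near those of all genes, and the counts say nothing particular about the members.

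The scale matters for the smaller changes. After TMM scaling the median gene moved by -0.02 on the log2 scale with LPS in each genotype, whereas on the log2(TPM + 1) scale it moved by -0.51 in WT, -0.52 in GILZ KO and -0.51 in GILZ TG, and with library totals alone by -0.70, -0.66 and -0.69. On the TPM scale and with library totals alone, 4 members were called higher and 5 lower in each genotype, with Alox5ap, Ltc4s and Ptger4 added to the lower ones. Of all genes, 16.1% were called higher and 65% lower in WT on the TPM scale, 15.3% and 66.1% in GILZ KO and 15.6% and 65.2% in GILZ TG. With library totals alone these shares were 15.9% and 68.3% in WT, 15.5% and 67.2% in GILZ KO and 15.5% and 68.3% in GILZ TG, so that most genes were called lower on both scales. Levels below are in TPM, and log2 fold changes are TMM-scaled unless another scale is named.

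**Figure D1:**
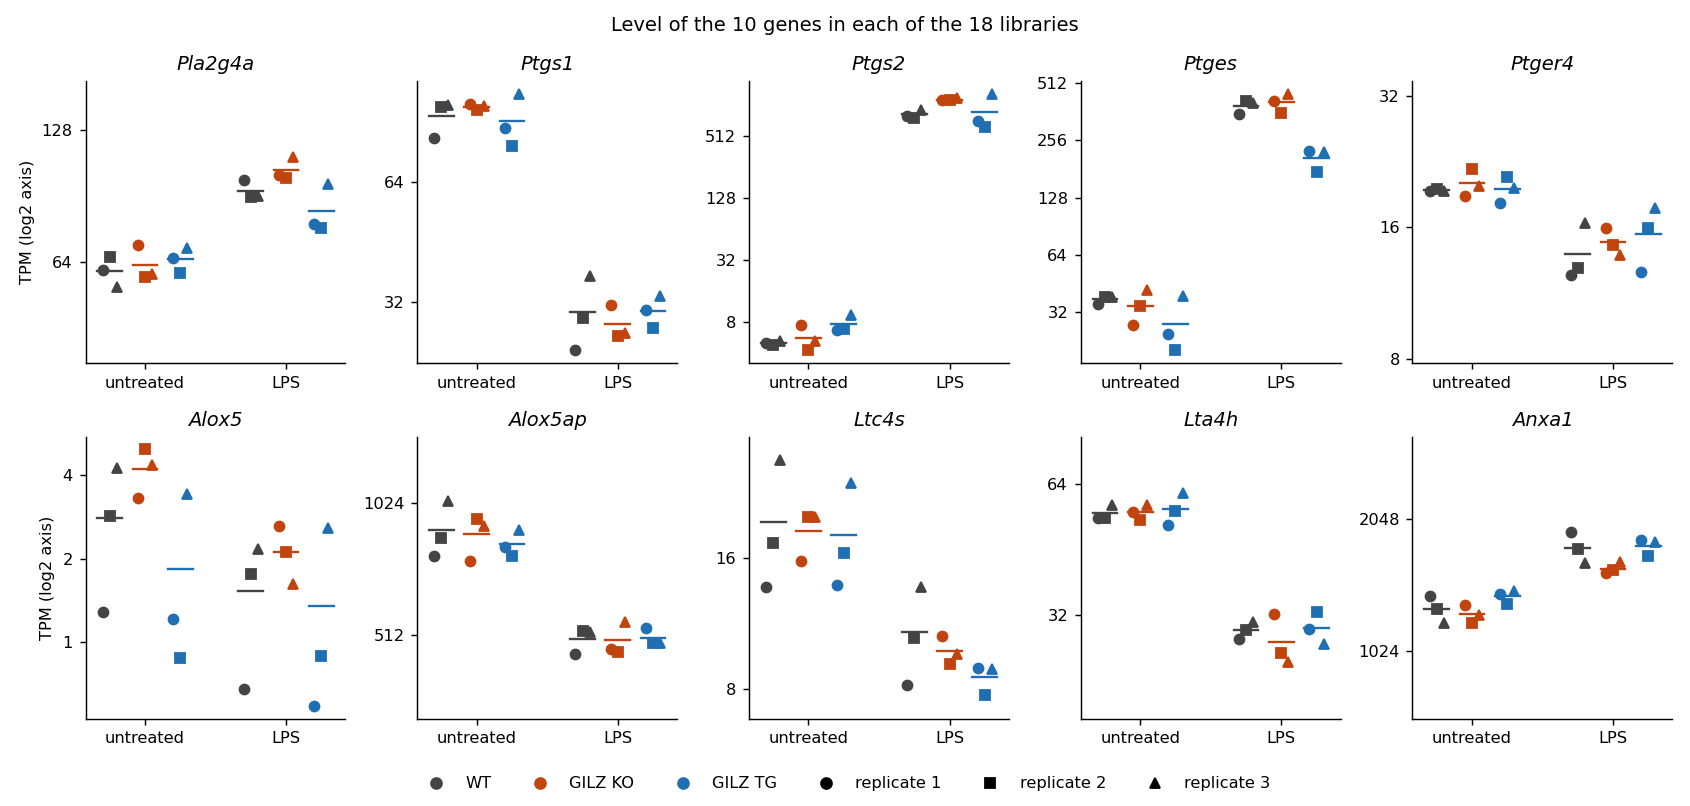
TPM of each of the 10 members in each of the 18 libraries, on a log2 axis, with 1 panel a gene; points are libraries, colours mark the genotype, shapes the replicate number and bars the group means. Ptgs2 goes from 4.27 to 9.38 TPM untreated to 632 to 1312 TPM after LPS, and after LPS the 3 GILZ TG libraries of Ptges lie below all WT and GILZ KO libraries.

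Pla2g4a, the cytosolic phospholipase A2 that feeds both branches, was at 61.5, 65.7 and 56.2 TPM in the untreated WT libraries 1 to 3, at 69.9, 59.1 and 60.2 in GILZ KO and at 65.5, 60.4 and 68.9 in GILZ TG. After LPS it was at 98.5, 90.02 and 90.7 TPM in WT, 101, 99.8 and 111 in GILZ KO and 78.3, 76.6 and 96.4 in GILZ TG. Every LPS library was above every untreated one, and the GILZ KO libraries after LPS lay above those of the other genotypes, of which WT and GILZ TG overlapped. Pla2g4a rose with LPS by 1.24 ± 0.10 on the log2 scale (SE) in WT, 1.38 ± 0.10 in GILZ KO and 1.03 ± 0.10 in GILZ TG, with edgeR adjusted p of 8.23e-09, 2.44e-09 and 8.74e-08. After LPS the level in GILZ KO was 1.24 times that in GILZ TG, a log2 difference of 0.30 (95% interval 0.08 to 0.53) that did not pass the threshold (edgeR adjusted p = 0.138). Without GILZ TG LPS replicate 3, the highest of its group, the difference was 0.43 with an edgeR adjusted p of 0.00694. That fit kept only GILZ TG replicates 1 and 2, which had the higher marker sums of other marrow cells. It was the only 1 of 15 alternatives to pass, and the log2 difference ranged from 0.07 to 0.43 over them.

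The cyclooxygenases exchanged places. The promoters of the 2 genes, with that of Ptges, are shown because these 3 genes hold the largest LPS changes of the members in each direction. Each window holds the 250 bases before the RefSeq transcription start (GRCm38.p6), chr1:150099781-150100030 on the plus strand for Ptgs2, chr2:36230176-36230425 on the plus strand for Ptgs1 and chr2:30903298-30903547 on the minus strand for Ptges, read 5′ to 3′ with matches to the C/EBP motif TTNCNNAA on either strand in capitals.
Ptgs2: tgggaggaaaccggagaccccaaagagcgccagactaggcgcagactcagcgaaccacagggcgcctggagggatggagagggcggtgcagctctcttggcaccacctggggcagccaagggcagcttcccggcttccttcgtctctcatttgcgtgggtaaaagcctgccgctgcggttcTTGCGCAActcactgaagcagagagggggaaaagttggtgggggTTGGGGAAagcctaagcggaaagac
Ptgs1: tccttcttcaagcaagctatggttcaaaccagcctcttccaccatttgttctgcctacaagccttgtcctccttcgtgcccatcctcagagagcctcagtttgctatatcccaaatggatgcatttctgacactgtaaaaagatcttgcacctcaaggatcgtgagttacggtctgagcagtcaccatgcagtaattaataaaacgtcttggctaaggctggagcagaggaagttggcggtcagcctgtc
Ptges: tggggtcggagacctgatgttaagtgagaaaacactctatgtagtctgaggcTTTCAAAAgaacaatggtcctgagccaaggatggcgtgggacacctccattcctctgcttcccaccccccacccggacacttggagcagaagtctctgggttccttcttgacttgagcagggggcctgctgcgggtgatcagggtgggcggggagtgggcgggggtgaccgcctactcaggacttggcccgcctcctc
The Ptgs2 window held C/EBP matches whose first base is 69 and 25 bases before the start, the Ptges window held 1 at 198 bases before it, and the Ptgs1 window held none. The motif is short and matched in 40.7% of 32851 promoter windows of 300 bases (250 before and 50 after the start), so that a match is a description of the letters and not of binding. The only matches to the E box CACGTG and the CRE core TGACG among the members overlapped each other 17 and 14 bases after the Ptgs2 start, outside the printed stretch, and these letters were found in 7.15% and 20.8% of all windows. None of the windows of the 9 members with a RefSeq promoter entry matched the NF-kB, AP-1, ISRE or glucocorticoid response element searched. Those were found in 8.46%, 7.81%, 3.44% and 0.475% of all windows, respectively, and no match says only that the letters are not in that window. For AP-1 the letters were TGANTCA, and the NF-kB, ISRE and glucocorticoid response element were searched as named motifs. The Ptgs2 window is also covered in part by exons of the antisense gene Ptgs2os.

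Ptgs2, the inducible cyclooxygenase COX-2 (ENSMUSG00000032487, GRCm38 chr1:150100031-150108227, plus strand), was low in untreated BMMs, at 5.07, 4.76 and 5.28 TPM in WT, 7.44, 4.27 and 5.25 in GILZ KO and 6.78, 6.83 and 9.38 in GILZ TG. After LPS it reached 805, 763 and 914 TPM in WT, 1132, 1133 and 1203 in GILZ KO and 709, 632 and 1312 in GILZ TG. The LPS libraries stood far above the untreated ones, the GILZ KO libraries lay above WT after LPS, and the GILZ TG libraries after LPS spread wider than both, with replicates 1 and 2 below all WT libraries and replicate 3 the highest of all 18. The mean level after LPS was 164 times the untreated one in WT, 204 times in GILZ KO and 115 times in GILZ TG. The log2 fold changes were 7.99 ± 0.31 (SE), 8.31 ± 0.32 and 7.50 ± 0.31, with edgeR adjusted p of 3.49e-13, 2.85e-13 and 5.91e-13.

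Differences in Ptgs2 between genotypes did not pass the threshold. In untreated BMMs GILZ TG was 1.52 times WT with no overlap, a log2 difference of 0.60 (95% interval 0.16 to 1.03, edgeR adjusted p = 0.202). After LPS GILZ KO was 1.397 times WT, a log2 difference of 0.48 (interval -0.02 to 0.98, edgeR adjusted p = 0.539), and it reached an edgeR adjusted p of 0.0477 only when the fit held just these 6 libraries, the range over all alternatives being 0.0477 to 0.807. The GILZ KO and GILZ TG values after LPS gave 0.37 (interval -0.13 to 0.87, edgeR adjusted p = 0.416), which depended on the libraries kept. Over 15 alternatives this difference ranged from -0.22 to 0.79, and 1 of them passed. That was the fit without GILZ TG LPS replicate 3, at 0.79 with an edgeR adjusted p of 0.000567. It kept only GILZ TG replicates 1 and 2, which had the higher marker sums of other marrow cells. Leaving out GILZ TG replicates 1 and 2 instead gave GILZ TG above WT after LPS by 0.70 (edgeR adjusted p = 0.0219), against 0.11 with all libraries. Without GILZ TG LPS replicate 3 the same difference was -0.31, so that its direction changed with the libraries kept.

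Ptgs1, the constitutive cyclooxygenase COX-1 (ENSMUSG00000047250, GRCm38 chr2:36230426-36252272, plus strand), went the other way. It was at 82.5, 98.4 and 99.9 TPM in untreated WT, 100.25, 97.0 and 99.3 in GILZ KO and 87.3, 78.9 and 106 in GILZ TG. In the LPS libraries it was at 24.2, 29.1 and 37.1 TPM in WT, 31.4, 26.3 and 26.7 in GILZ KO and 30.5, 27.5 and 33.1 in GILZ TG. Every LPS library was below every untreated library, and the genotypes overlapped within each treatment. Ptgs1 fell by 0.84 ± 0.15 on the log2 scale in WT, by 0.98 ± 0.15 in GILZ KO and by 0.77 ± 0.15 in GILZ TG, with edgeR adjusted p of 7.19e-05, 1.54e-05 and 0.000154. The TPM ratios, which do not remove the shift of the median gene, were 0.322, 0.285 and 0.334.

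Set side by side, Ptgs2 made up 5.14% ± 0.60 (SD, n = 3) of the summed cyclooxygenase TPM in untreated WT, 5.38% ± 1.38 in GILZ KO and 7.76% ± 0.48 in GILZ TG. After LPS it made up 96.5% ± 0.51, 97.6% ± 0.28 and 96.4% ± 0.97. The isoform that held nearly all of the cyclooxygenase mRNA was therefore the opposite one before and after LPS, in each of the 18 libraries. Within a treatment the shares lay within a few percentage points of each other, and the untreated GILZ TG libraries, at 7.21% to 8.10%, were the upper ones.

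**Figure D2:**
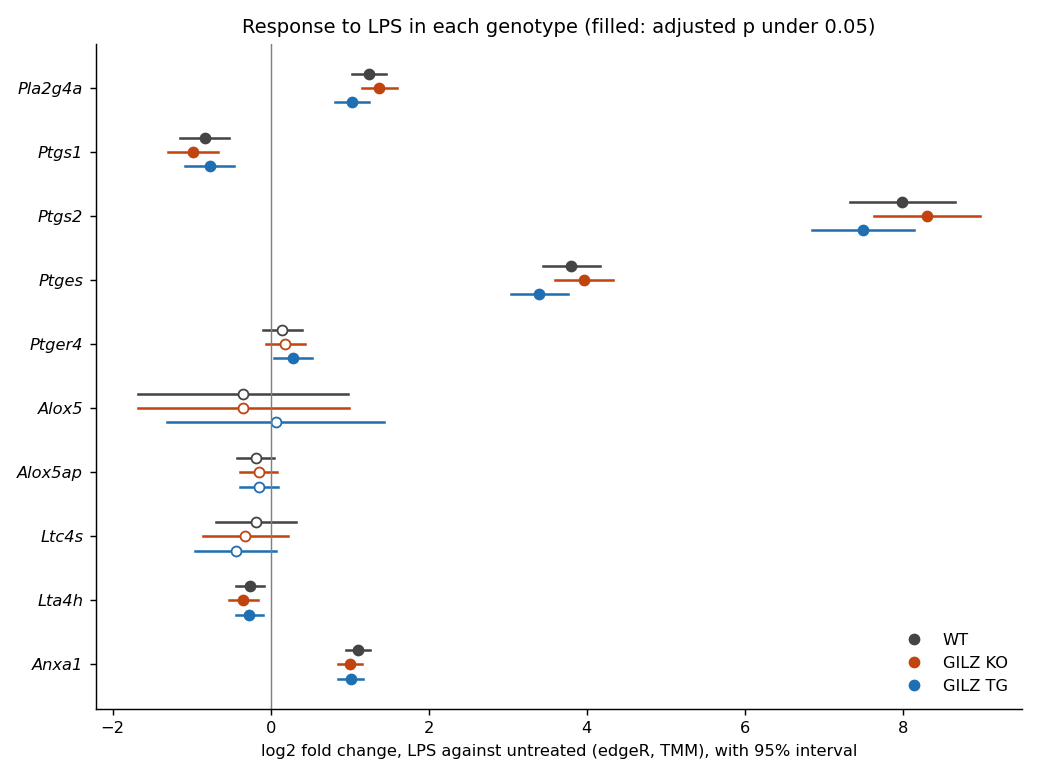
Log2 fold change of LPS against untreated BMMs (edgeR, TMM-scaled) for each member in WT, GILZ KO and GILZ TG; bars are 95% intervals and filled points have an adjusted p under 0.05. Ptgs2 and Ptges stand far to the right, Pla2g4a and Anxa1 lie near 1, Ptgs1 and Lta4h lie below 0, and Ptger4, which lies at 0.15 to 0.28 here, turns to -0.46 to -0.33 on the log2(TPM + 1) scale and to -0.53 to -0.39 with library totals alone.

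Ptges, the microsomal prostaglandin E synthase that acts after the cyclooxygenases (ENSMUSG00000050737, GRCm38 chr2:30889471-30929863, minus strand), was induced by LPS in each genotype and was the member that edgeR called between genotypes. Untreated, it was at 35.5, 38.3 and 38.2 TPM in WT, 27.5, 34.3 and 41.9 in GILZ KO and 24.6, 20.2 and 38.7 in GILZ TG. With LPS it reached 352, 413 and 403 TPM in WT, 411, 356 and 450 in GILZ KO and 225, 175 and 222 in GILZ TG. All LPS libraries were above all untreated ones, WT and GILZ KO overlapped after LPS, and all 3 GILZ TG libraries were below both. Ptges rose with LPS by 3.80 ± 0.17 on the log2 scale in WT, 3.96 ± 0.17 in GILZ KO and 3.40 ± 0.17 in GILZ TG (edgeR adjusted p = 2.37e-12, 1.69e-12 and 1.03e-11).

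After LPS the mean was 389 ± 32.6 TPM (SD, n = 3) in WT, 405 ± 47.4 in GILZ KO and 207 ± 28.1 in GILZ TG. GILZ TG was thus at 0.532 times WT, a log2 difference of -0.91 ± 0.10 (95% interval -1.14 to -0.68, edgeR adjusted p = 0.00316). GILZ KO was at 1.96 times GILZ TG, a log2 difference of 1.06 ± 0.10 (interval 0.84 to 1.29, edgeR adjusted p = 0.00117). The comparison of GILZ KO with WT gave 0.15 (interval -0.07 to 0.38, edgeR adjusted p = 0.67). The first and second of these comparisons share the GILZ TG libraries, and each was called in all 15 alternatives run, with log2 differences from -0.98 to -0.80 and from 0.95 to 1.14.

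The stromal fibroblast markers were high in GILZ TG replicates 1 and 2 after LPS, at 80.2 and 109 TPM summed. In GILZ TG replicate 3 they summed to 10.3 TPM, just below the lowest WT or GILZ KO library after LPS (10.39 TPM). Its neutrophil lineage markers, at 83.5 TPM, and its B cell markers, at 11.8 TPM, were above the highest WT or GILZ KO library after LPS (77.2 and 6.72 TPM). GILZ TG replicate 3 after LPS had Ptges at 222 TPM, between the other GILZ TG libraries. With replicates 1 and 2 left out, the log2 difference of GILZ TG from WT was -0.82 (edgeR adjusted p = 0.0161) and that of GILZ KO from GILZ TG was 0.97 (edgeR adjusted p = 0.0105), with the lone GILZ TG library assumed to vary like the other groups. Untreated, the GILZ TG libraries were not alike, with replicates 1 and 2 lowest of all 9 and replicate 3 within the WT and GILZ KO range, and GILZ TG against WT gave -0.51 (interval -0.91 to -0.11, edgeR adjusted p = 0.233). Without GILZ TG untreated replicate 3 that difference was -0.71 with an edgeR adjusted p of 0.0339, and GILZ KO against GILZ TG, 0.48 with all libraries (edgeR adjusted p = 0.139), was 0.68 (0.0277). This fit kept only GILZ TG replicates 1 and 2, and for each comparison it was the only 1 of 15 alternatives to pass. Over the alternatives the 2 differences ranged from -0.71 to -0.18 and from 0.15 to 0.68. The part of other marrow cells in the Ptges values, untreated or after LPS, was not tested.

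**Figure D3:**
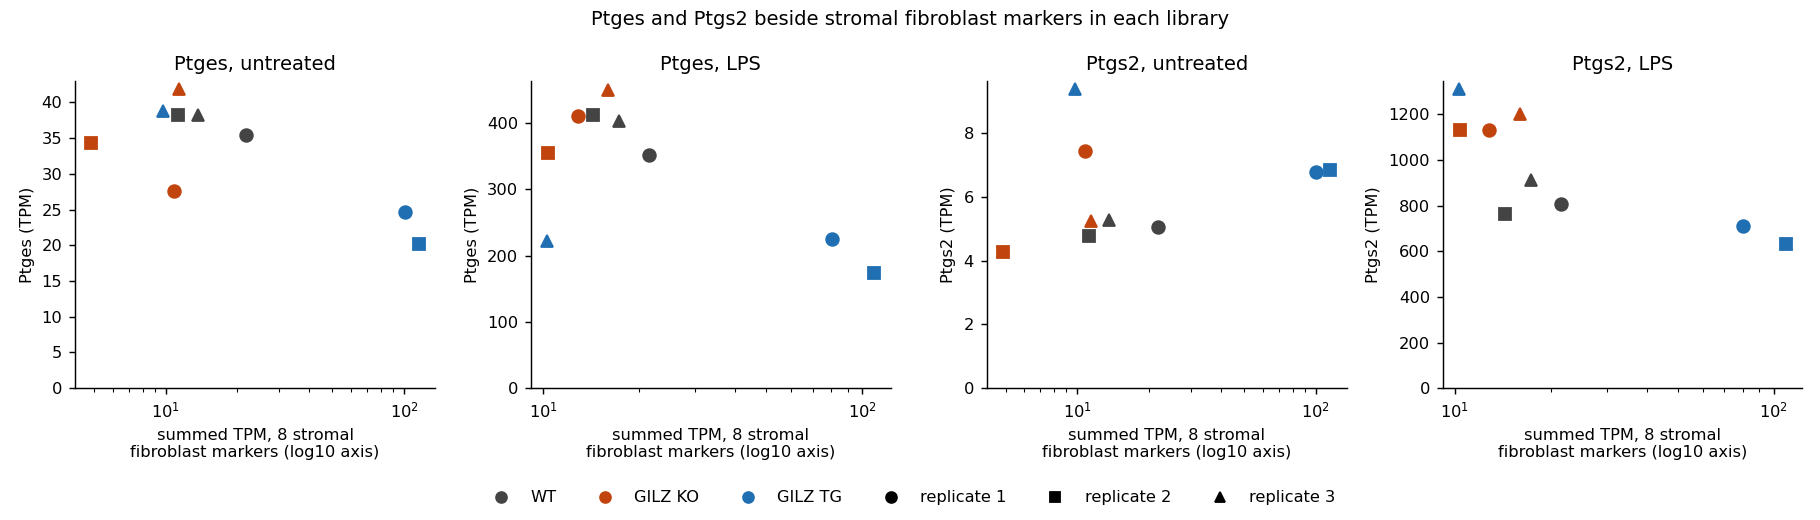
TPM of Ptges and Ptgs2 in each library against the summed TPM of 8 stromal fibroblast markers (log10 axis), untreated and after LPS, with colours for the genotype. GILZ TG replicates 1 and 2 lie to the right at 80.2 to 115 TPM, and after LPS GILZ TG replicate 3, at 10.3 TPM of these markers, has Ptges as low as the other GILZ TG libraries but the highest Ptgs2.

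Ptger4, the EP4 receptor through which prostaglandin E2 raises cAMP, was at 19.3, 19.6 and 19.4 TPM in untreated WT, 18.9, 21.7 and 19.9 in GILZ KO and 18.1, 20.9 and 19.7 in GILZ TG. After LPS it was at 12.5, 12.9 and 16.4 TPM in WT, 15.9, 14.6 and 13.9 in GILZ KO and 12.6, 16.0 and 17.7 in GILZ TG. In TPM every LPS library was below every untreated one and the genotypes overlapped. The direction depended on the scale: after TMM the log2 differences were 0.15, 0.19 and 0.28 in WT, GILZ KO and GILZ TG (edgeR adjusted p = 0.271, 0.172 and 0.0368), whereas on the log2(TPM + 1) scale they were -0.46, -0.42 and -0.33 and with library totals alone -0.53, -0.45 and -0.39. Relative to the median gene on the log2(TPM + 1) scale, Ptger4 lay at 0.04, 0.09 and 0.18. The call in GILZ TG was also lost when either GILZ TG untreated replicate 1 or 3 or GILZ TG LPS replicate 2 or 3 was left out, and when only 6 libraries were fitted. Its exons share 82 bases with Ttc33 on the opposite strand, a gene at up to 37.7 TPM, and the strand setting of the counting is not given in the sources used here.

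In the leukotriene branch, Alox5ap, the membrane protein that presents arachidonic acid to 5-lipoxygenase, was the most abundant gene of the branch. Markers of other cells that use this branch were mixed, and whether such cells were present was not tested. Of 7 mast cell and basophil markers Fcer1a was at 0 in all 18 libraries, Cpa3 and Ms4a2 in 17 each and Mcpt8 in 9, Kit and Gata2 were above 0 in all at up to 0.39 and 0.86 TPM, and Hdc was at 0.06 to 74.2 TPM, so that the 7 summed to 0.78 to 2.01 TPM untreated and 46.6 to 74.6 TPM after LPS. Of 8 neutrophil lineage markers S100a8, S100a9, Ngp, Camp and Ltf were above 0 in all 18 libraries, S100a9 at up to 214 TPM, and Ly6g was at 0 in 16, Elane in 13 and Mpo in 7. The part of such cells in the levels of the branch was not tested either. Alox5ap was at 773, 851 and 1034 TPM in untreated WT, 755, 942 and 905 in GILZ KO and 813, 775 and 889 in GILZ TG. With LPS these became 462, 523 and 518 TPM in WT, 474, 467 and 548 in GILZ KO and 530.05, 489 and 489 in GILZ TG. Treatments were apart and genotypes overlapped, at 0.565, 0.572 and 0.609 of the untreated TPM. After TMM scaling the log2 differences were -0.19, -0.15 and -0.15 (edgeR adjusted p = 0.144, 0.236 and 0.251), and relative to the median gene on the log2(TPM + 1) scale they were -0.31, -0.29 and -0.20.

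Alox5, 5-lipoxygenase itself, was near the lower end of detection at 17 to 158 counts a library. It was at 1.28, 2.85 and 4.24 TPM in untreated WT, 3.31, 4.94 and 4.35 in GILZ KO and 1.21, 0.88 and 3.42 in GILZ TG. In the LPS groups it was at 0.68, 1.76 and 2.16 TPM in WT, 2.62, 2.11 and 1.62 in GILZ KO and 0.59, 0.89 and 2.58 in GILZ TG. WT replicate 1 and GILZ TG replicates 1 and 2 were the low ones under both treatments, and only in GILZ KO were the untreated libraries apart from the LPS libraries. The LPS differences of -0.35, -0.35 and 0.06 on the log2 scale had edgeR adjusted p of 0.643, 0.643 and 0.942. Without GILZ TG untreated replicate 3, Alox5 in untreated BMMs was higher in GILZ KO than in GILZ TG by 2.02 (edgeR adjusted p = 0.0297), against 0.98 with all libraries (edgeR adjusted p = 0.328). That fit kept only GILZ TG replicates 1 and 2, which had the higher marker sums of other marrow cells. It was the only 1 of 15 alternatives to pass, and the difference ranged from -0.05 to 2.02 over them.

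Ltc4s, which conjugates leukotriene A4 to glutathione, was at 13.7, 17.3 and 26.7 TPM in untreated WT, 15.7, 19.8 and 19.8 in GILZ KO and 13.9, 16.4 and 23.8 in GILZ TG. After LPS it was at 8.20, 10.5 and 13.7 TPM in WT, 10.6, 9.15 and 9.66 in GILZ KO and 8.94, 7.76 and 8.92 in GILZ TG. Every LPS library was below every untreated one, though WT replicate 3 after LPS lay next to WT replicate 1 untreated, and GILZ KO lay above GILZ TG after LPS. After TMM scaling the LPS differences were -0.19, -0.32 and -0.44 (edgeR adjusted p = 0.505, 0.271 and 0.116), none of which passed in this fit. On the log2(TPM + 1) scale they were -0.76, -0.84 and -0.96 and with library totals alone -0.86, -0.96 and -1.12, and all of these passed. Both of those scales leave the shift of the median gene in the value. In GILZ TG, where same-numbered untreated and LPS libraries varied together, the fit with the replicate block gave -0.41 and passed (edgeR adjusted p = 0.0268), as did the fit without GILZ TG untreated replicate 1, at -0.61 (edgeR adjusted p = 0.0482). GILZ TG against WT after LPS gave -0.36 (interval -0.78 to 0.05, edgeR adjusted p = 0.396).

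Lta4h, which hydrolyses leukotriene A4 to leukotriene B4, was even across the untreated libraries, at 53.4, 53.5 and 57.3 TPM in WT, 55.0, 53.0 and 57.1 in GILZ KO and 51.4, 55.5 and 61.0 in GILZ TG. With LPS the levels were 28.3, 29.6 and 30.9 TPM in WT, 32.2, 26.2 and 25.0 in GILZ KO and 29.7, 32.6 and 27.5 in GILZ TG. The treatments were apart by a wide gap and the genotypes overlapped. Lta4h fell by 0.26 ± 0.08 on the log2 scale in WT, by 0.35 ± 0.08 in GILZ KO and by 0.27 ± 0.08 in GILZ TG (edgeR adjusted p = 0.0102, 0.00157 and 0.00776). Relative to the median gene on the log2(TPM + 1) scale it lay at -0.36, -0.45 and -0.37.

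Anxa1, annexin A1 (ENSMUSG00000024659, GRCm38 chr19:20373428-20390944, minus strand), was the most abundant member in untreated BMMs, at 1369, 1276 and 1189 TPM in WT, 1307, 1188 and 1236 in GILZ KO and 1382, 1314 and 1408 in GILZ TG. With LPS it stood at 1914, 1754 and 1633 TPM in WT, 1541, 1568 and 1636 in GILZ KO and 1837, 1689 and 1816 in GILZ TG. All LPS libraries were above all untreated ones, and GILZ KO was below GILZ TG without overlap under both treatments, while WT overlapped both. Anxa1 rose with LPS by 1.104 ± 0.07 in WT, 1.00 ± 0.07 in GILZ KO and 1.01 ± 0.07 in GILZ TG on the log2 scale (edgeR adjusted p = 5.26e-10, 2.07e-09 and 1.72e-09). GILZ KO against GILZ TG gave -0.19 (interval -0.30 to -0.07, edgeR adjusted p = 0.0689) untreated and -0.17 (interval -0.36 to 0.02, edgeR adjusted p = 0.303) after LPS. DESeq2 gave the untreated difference an adjusted p of 0.00689, the range over all alternatives being 0.00689 to 0.247.

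The promoter of Anxa1 is shown because it held the only match to the TATA box TATAAA within 50 bases before the start among the members. The 250 bases lie before the RefSeq start, chr19:20390672-20390921 on the minus strand (GRCm38.p6), with that match, whose first base is 32 bases before the start, and a C/EBP match at 143 bases before it in capitals.
Anxa1: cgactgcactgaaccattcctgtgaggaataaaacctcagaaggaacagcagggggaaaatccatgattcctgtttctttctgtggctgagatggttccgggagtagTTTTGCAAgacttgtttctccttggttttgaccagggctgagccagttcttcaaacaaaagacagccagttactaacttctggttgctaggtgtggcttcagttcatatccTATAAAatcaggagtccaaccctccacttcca
TATAAA on either strand was found in 13.6% of the 300-base windows of all promoters.

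**Figure D4:**
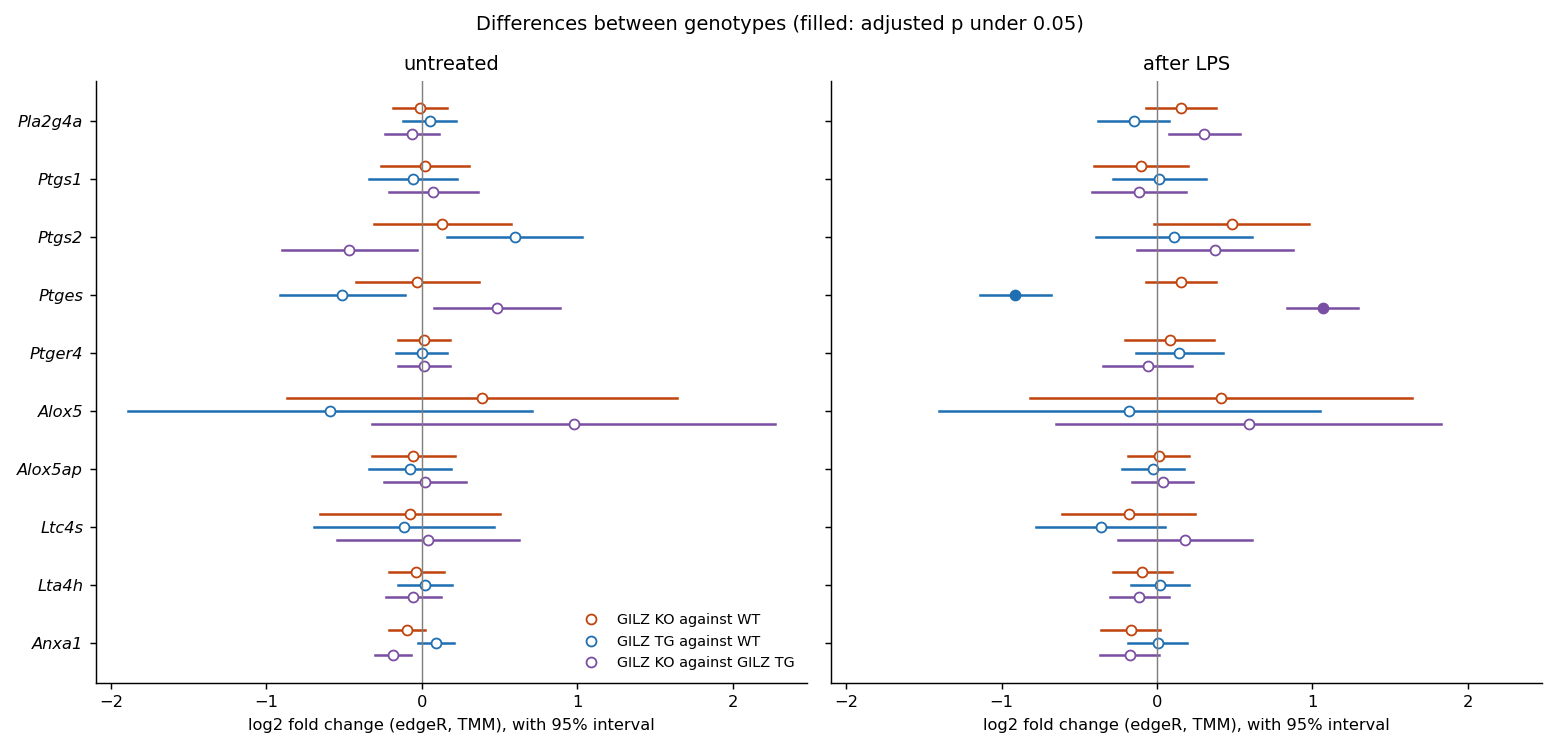
Log2 differences between genotypes (edgeR, 95% intervals) for each member, untreated and after LPS, with filled points for an adjusted p under 0.05. Only Ptges after LPS is filled, for GILZ TG against WT at -0.91 and GILZ KO against GILZ TG at 1.06.

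Counted over the 10 members, genotype differences were few. In untreated BMMs edgeR called 0 members in GILZ KO against WT (0 at an unadjusted p under 0.05, 0 by DESeq2 and 0 by limma), against 0.0951% of all genes tested and 9.6% at an unadjusted p under 0.05. In GILZ TG against WT untreated it called 0 members (2 unadjusted, Ptgs2 and Ptges, 0 by DESeq2 and 0 by limma), against 0.642% of all genes and 14.1% unadjusted. In GILZ KO against GILZ TG untreated it called 0 members (3 unadjusted, Anxa1, Ptges and Ptgs2, 1 by DESeq2 and 0 by limma), against 4.94% of all genes, 24.6% unadjusted and 9.65% by DESeq2, so that these counts were near the shares over all genes.

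After LPS edgeR called 0 members in GILZ KO against WT (0 unadjusted, 0 by DESeq2 and 0 by limma), against 0.0822% of all genes and 9.63% unadjusted. It called 1 member in GILZ TG against WT, where 0.46% of all genes were called, and 1 in GILZ KO against GILZ TG, where 2.6% were, which was Ptges in both. At an unadjusted p under 0.05 there were 1 and 2 members, the second being Pla2g4a, against 15.2% and 19.1% of all genes. The interval of the difference of GILZ KO from WT after LPS spanned 0 for all 10 members, from -0.82 to 1.64 in Alox5 at the widest.

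Whether the LPS response itself differed between genotypes was tested by the difference of the log2 fold changes. EdgeR called 0 members for GILZ KO minus WT (0 unadjusted, 0 by DESeq2 and 0 by limma), against 0.0152% of all genes and 6.36% unadjusted, and 0 for GILZ TG minus WT (0 unadjusted, 0 by DESeq2 and 0 by limma), against 0.00759% and 3.09% unadjusted. For GILZ KO minus GILZ TG it called 0 members (3 unadjusted, 0 by DESeq2 and 0 by limma), against 0.121% of all genes and 9.92% unadjusted. The 3 were Ptgs2 at 0.81 (interval 0.07 to 1.55, edgeR adjusted p = 0.43), Ptges at 0.56 (0.09 to 1.03, edgeR adjusted p = 0.37) and Pla2g4a at 0.34 (0.04 to 0.65, edgeR adjusted p = 0.409). Without GILZ TG LPS replicate 3 the Ptgs2 difference was 1.25 with an edgeR adjusted p of 0.0207. This was the only 1 of 19 alternatives to pass, and the Ptgs2 difference ranged from 0.51 to 1.25 over them. For Ptges, GILZ TG minus WT was -0.41 (interval -0.88 to 0.06), which did not pass (edgeR adjusted p = 1).

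Ordered by mean TPM over the 6 groups, Ptgs2, Ptges, Pla2g4a and Anxa1 had the 3 LPS groups above the 3 untreated groups, and Ptgs1, Alox5ap, Ltc4s, Lta4h and Ptger4 had them below, with no overlap at the boundary. Within a treatment most neighbours in that order overlapped. Those apart were WT above GILZ TG for Ptges after LPS, GILZ KO above WT for Pla2g4a after LPS and GILZ KO above GILZ TG for Ltc4s after LPS. For Alox5 every neighbouring pair overlapped. On the log2(TPM + 1) scale 65% to 66.1% of all genes were called lower after LPS and 15.3% to 16.1% higher. The share of all genes apart in this way, between treatments or between genotypes, is not given, so that the order is a description only.

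The wider eicosanoid pathway was read from a list of 58 other genes in 7 groups, of which 44 were tested for LPS. By edgeR 22 rose and 7 fell in WT, 23 and 6 in GILZ KO and 22 and 5 in GILZ TG, with medians of 0.33, 0.28 and 0.42 against -0.02 over all genes and beside the 33.2% to 33.6% of all genes called higher and 35.1% to 35.4% called lower. On the log2(TPM + 1) scale the split turned to 9 higher and 19 lower in WT, 9 and 22 in GILZ KO and 11 and 18 in GILZ TG, with medians of -0.20, -0.19 and -0.18 against -0.51, -0.52 and -0.51, beside 15.3% to 16.1% of all genes called higher and 65% to 66.1% lower.

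The group of annexins and formyl peptide receptors, which also held S100a10 and S100a11, rose together after TMM scaling. In each genotype 11 of 11 tested were higher, with medians of 0.77, 0.73 and 0.88, beside 33.2% to 33.6% of all genes. On the log2(TPM + 1) scale 5 were higher and 2 (Anxa2 and Anxa11) lower in WT and GILZ KO. In GILZ TG 7 were higher, S100a10 and S100a11 among them, and 1 (Anxa11) was lower. Of all genes 15.3% to 16.1% were called higher and 65% to 66.1% lower on that scale. The formyl peptide receptors, through which annexin A1 signals, had the largest changes, Fpr2 by 5.39, 5.29 and 5.52 on the log2 scale in WT, GILZ KO and GILZ TG and Fpr1 by 4.32, 4.45 and 4.62. Anxa7 rose by 1.48, 1.31 and 1.48, Anxa6 by 1.19, 1.26 and 1.18 and Anxa4 by 0.88, 0.82 and 0.88, and each of these 5 genes was higher under every scaling.

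The cysteinyl leukotriene receptors rose under every scaling, Cysltr1 by 1.65, 1.41 and 1.42 and Cysltr2, from under 1 TPM, by 3.97, 2.80 and 4.30. Of the 8 other phospholipases tested, 2 rose and 3 fell in each genotype after TMM scaling, and 1 rose and 5 fell on the log2(TPM + 1) scale. Pla2g4c rose by 2.17, 1.92 and 2.096, whereas Pla2g15 was lower (-1.21, -1.20 and -1.12), as were Pla2g6 (-1.08, -0.98 and -1.42) and Pla2g5 (-0.80, -0.71 and -0.55). Of 6 other prostanoid synthases tested, 1 rose (Akr1b3) and 2 fell (Hpgds and Tbxas1) in WT after TMM scaling, and 0 rose and 6 fell on the log2(TPM + 1) scale. Of 4 other prostanoid receptors tested, 1, the prostacyclin receptor Ptgir, rose in each genotype after TMM scaling and none rose on the log2(TPM + 1) scale. Of 4 genes of prostanoid transport and breakdown, 1 rose (Abcc4) and 1 fell (Ptgr2) after TMM scaling, against 0 and 2 on the log2(TPM + 1) scale. Of 9 further genes of the leukotriene and lipoxygenase branch, 4 rose and 1 fell in WT after TMM scaling, against 1 and 3 on the log2(TPM + 1) scale. That 1 was Alox12, a 12-lipoxygenase at 0 to 0.14 TPM untreated and 1.35 to 2.1 TPM after LPS. The receptors Tbxa2r and Ptgdr were listed at 0 in each library.

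Between genotypes edgeR called 0 of 41 list genes untreated and 0 of 40 after LPS in each comparison against WT. At most 0.642% of all genes were called there. At an unadjusted p under 0.05 there were 3 untreated and 5 after LPS for GILZ KO, against 9.6% and 9.63% of all genes. For GILZ TG there were 8 and 5, against 14.1% and 15.2%. In GILZ KO against GILZ TG edgeR called 2 of 41 untreated and 2 of 40 after LPS. Of all genes 4.94% and 2.6% were called, so that the counts say nothing particular about the list. Unadjusted there were 9 and 11 list genes, against 24.6% and 19.1% of all genes. Tbxas1, thromboxane A synthase, had less RNA in GILZ KO, at 117 to 124 against 156 to 165 TPM in GILZ TG untreated (log2 difference -0.38, edgeR adjusted p = 0.035) and at 63.0 to 68.1 against 81.7 to 93.2 TPM after LPS (-0.46, edgeR adjusted p = 0.0401). Fpr1 after LPS was higher in GILZ KO than in GILZ TG, at 82.5 to 117 against 46.0 to 70.1 TPM (0.80, edgeR adjusted p = 0.0446). Abcc4, an exporter of prostaglandin E2, was higher in untreated GILZ KO, at 20.8 to 23.6 against 17.6 to 19.0 TPM (0.29, edgeR adjusted p = 0.0401).

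The genes most like each member were ranked by Pearson's r of log2(TPM + 1) over the 18 libraries, among 10136 genes with a group mean of at least 5 TPM. These points share their treatment, and r is given as a description. Over all libraries the nearest to Ptgs2 were Hcar2 (r = 0.999), Olfr56 (0.998) and Edn1 (0.998), and the nearest to Ptges were Fpr1, Csf3 and Sod2 (each 0.988). Ptgs1 was nearest to Me2 (0.993) and Lta4h to 4930579G24Rik (0.994), both with lower TPM after LPS. With each treatment's mean subtracted, which leaves the differences between genotypes and between libraries, Ptges was nearest to Gdpd1 (0.900), Dner (0.868) and Bnip3 (0.866), Ptgs2 to Hcar2 (0.844), and Anxa1 to Atp6v1d (0.890). Stap1 (0.969) was nearest to Pla2g4a, Get4 (0.981) to Alox5ap, Prelid1 (0.981) to Ltc4s, Anapc5 (0.957) to Ptger4 and Phgdh (0.930) to Alox5 over all libraries.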

How the data were processed

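RNA from 18 BMM libraries (6 groups of 3) was sequenced. The study gives 3 mice per group and describes the libraries as independent preparations in plots made separately for each treatment. Whether an untreated and an LPS library came from the same preparation is not stated, and the main LPS fits used no pairing. The authors mapped reads to GRCm38 with the grape-nf pipeline and deposited, for each library, a gene table of expected counts in the RSEM layout and TPM. The submitters' processing notes name FastQC 0.11.2 and DESeq2 1.40.2. Counter settings, including strand, are not given in the sources used here. Deposited DESeq2 comparisons hold the authors' fold changes and p-values. Those were not used, and 1 such table served only to pair gene IDs with symbols. A blank last row was dropped.

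Expected counts were rounded to whole numbers and tested with edgeR 4.0.16 (R 4.3.3; TMM, filterByExpr, quasi-likelihood test, Benjamini-Hochberg adjustment over all genes tested, threshold 0.05). Genotypes were compared within a treatment over its 9 libraries (12621 genes untreated, 12164 after LPS), and LPS effects and their differences over all 18 (13169 genes). All 10 members passed the filter in each fit. Intervals are 95%. Alternatives used DESeq2 1.42.0, limma 3.58.1 on log2(TPM + 1), DESeq2 size factors, no filter, a replicate block, other library sets and each library left out. Scaling by library totals alone was added after seeing the data. Fits were tested on simulated data. Same-numbered untreated and LPS libraries correlated in their deviations from the group means in GILZ TG (0.24 to 0.58), but not throughout in the other genotypes, and the labels state no pairing. Depth per library was 14583055 to 38557029 counts.

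The members, gene lists and tests were chosen with earlier results of these data known. Named were all members, list genes past the threshold (for LPS the largest changes among those of at least 1 TPM) and the genes of highest r. Promoters are from RefSeq (GRCm38.p6), gene positions from GENCODE.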

Additional observations from a re-analysis of the deposited data

How the results depend on the processing

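Of 1840 recomputed member values, 1647 kept their direction and their side of the threshold, 153 changed sign but were called in neither fit, and 40 changed their call or reversed. Ptger4 after LPS reversed on both other scalings: -0.463 (WT), -0.424 (GILZ KO) and -0.334 (GILZ TG) by limma on log2(TPM + 1), and -0.530, -0.452 and -0.394 with library totals only, a scaling added after seeing the data. Both scalings leave the shift of the median gene in the value. The number of members called moved from 0 to 1 for GILZ KO against GILZ TG untreated with DESeq2 (Anxa1), from 0 to 1 for GILZ KO against WT after LPS with only 6 libraries (Ptgs2), and from 1 to 2 for GILZ TG against WT after LPS without GILZ TG replicates 1 and 2 (Ptgs2). Leaving out each library in turn gave 0 to 1 members for GILZ TG against WT untreated, 0 to 2 for GILZ KO against GILZ TG untreated, 1 to 3 for that contrast after LPS and 0 to 1 for the difference of its LPS response. GILZ TG replicate 3 decided these. The cause was not tested.

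Deviations of same-numbered libraries correlated over 0.1 in 2 of 18 cases between genotypes, and between untreated and LPS libraries in 1 of 3 cases in WT, 0 of 3 in GILZ KO and 3 of 3 in GILZ TG. The LPS fit with the replicate block paired same-numbered libraries in each genotype, also in WT and GILZ KO. In GILZ TG the block added Ltc4s. In WT it added Alox5 and Alox5ap. With the replicate block the LPS comparisons called 8 members in WT, 6 in GILZ KO and 8 in GILZ TG, against 6, 6 and 7 without it, and the genotype comparisons called 0, 0, 0, 0, 1 and 1, as without it.

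Over all genes, the counts called ranged over the alternatives from 5 to 79 (12 in the reported fit) for GILZ KO against WT untreated, 16 to 665 (81) for GILZ TG against WT, 34 to 1306 (623) for GILZ KO against GILZ TG, and after LPS 4 to 100 (10), 15 to 1067 (56) and 24 to 1403 (316). Alox5 rested on 17 to 158 counts a library, and its intervals were the widest of the members.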

Other observations

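With each treatment's mean subtracted, the members' log2(TPM + 1) values varied together in some pairs over the 18 libraries. Ptgs2 and Pla2g4a had r = 0.763, Alox5ap and Ltc4s 0.720, and Ptgs1 and Ltc4s 0.671. Ptges and Ptgs2, which both rose with LPS, had r = 0.129. These points share genotypes and sets of libraries, and the values are a description with no test.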
